A study of Rattus norvegicus with 16 samples.

Results

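Adipocyte marker genes were followed on 16 arrays labelled as soleus muscle, 1 rat each. The genes were 9 in number, namely Adipoq, Lep, Cfd, Retn, Plin1, Fabp4, Fasn, Pparg and Cebpa, and they were chosen by name: a probe set counted as a member where the platform annotation gave it one of these as its single gene symbol. By that rule 8 of the 9 genes had a probe set, and 14 of the 31042 probe sets tested belonged to them. Cebpa had 5 probe sets, Plin1 and Fasn had 2 each, and Adipoq, Lep, Cfd, Fabp4 and Pparg had 1 each. Retn, which encodes resistin, had no probe set that carried its symbol alone and was not analysed here. Where a gene had several probe sets, the one with the highest mean over all arrays stands for it.

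The rats were females of lines bred from N:NIH stock for generations by how far they ran on a treadmill at 11 weeks of age. HCR rats descend from the best runners and LCR rats from the poorest, and both lines were at generation 16. HCR trained and LCR trained rats (n = 4 each) ran uphill intervals on a treadmill at 25 degrees for 1.5 hours, on 5 days a week for 8 weeks, with 8 minute bouts at 85 to 90% of maximal oxygen uptake. HCR sedentary and LCR sedentary rats (n = 4 each) were kept alike without training or oxygen uptake tests. All were killed at about 7 months of age, the trained groups 48 hours after their last session. RNA came from a 20 mg piece of a whole frozen soleus, 1 rat per array, so every cell type in that piece contributed. Values are log2 expression, so that 1 unit is a factor of 2 in signal, and precision is limited by there being 4 rats in a group.

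Adipocytes store triglyceride in a large lipid droplet and secrete hormones. The nuclear receptor encoded by Pparg and the transcription factor encoded by Cebpa switch on and sustain their gene programme, which includes the droplet coat protein perilipin 1 (Plin1), the fatty acid carrier Fabp4 and the secreted products adiponectin (Adipoq), leptin (Lep) and complement factor D, or adipsin (Cfd). In skeletal muscle, adipocytes lie between the fibres and fascicles, whereas the fibres themselves hold small droplets and carry fatty acids mainly with another binding protein. Several members are not restricted to fat: Fabp4 is also made by capillary endothelium, and Fasn, fatty acid synthase, by other cells that make fat. In whole tissue, fewer adipocytes and less RNA per adipocyte cannot be told apart.

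Promoters are shown for 3 of the members whose signals varied most between arrays, Adipoq, Plin1 and Cfd, and for Lep, whose signal stayed at the low end of the array. Each is the 300 base window of RefSeq, assembly GRCr8, with 250 bases before and 50 after the annotated start, written along the gene's own strand. Capitals mark exact matches, on either strand, to any of 5 motifs: the TATA box with letters TATAAA, the CCAAT box with the letters of its name, a palindrome bound by C/EBP proteins with letters TTGCGCAA, an element of nuclear receptor sites with letters AGGTCA, and an E-box with letters CACGTG. The windows are chr11:91240120-91240419 on the minus strand for Adipoq, chr1:143086099-143086398 on the minus strand for Plin1, chr7:10465447-10465746 on the minus strand for Cfd and chr4:58626288-58626587 on the plus strand for Lep.
Adipoq: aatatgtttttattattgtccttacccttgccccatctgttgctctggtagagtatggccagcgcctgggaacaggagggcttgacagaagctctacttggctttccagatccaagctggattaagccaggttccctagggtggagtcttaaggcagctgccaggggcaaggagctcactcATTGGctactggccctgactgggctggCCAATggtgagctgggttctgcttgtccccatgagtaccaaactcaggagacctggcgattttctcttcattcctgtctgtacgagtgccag
Plin1: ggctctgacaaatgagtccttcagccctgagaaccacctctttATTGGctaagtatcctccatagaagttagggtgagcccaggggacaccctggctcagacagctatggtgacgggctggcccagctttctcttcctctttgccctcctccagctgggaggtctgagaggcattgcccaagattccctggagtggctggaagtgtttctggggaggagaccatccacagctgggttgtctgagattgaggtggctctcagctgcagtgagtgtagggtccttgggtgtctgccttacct
Cfd: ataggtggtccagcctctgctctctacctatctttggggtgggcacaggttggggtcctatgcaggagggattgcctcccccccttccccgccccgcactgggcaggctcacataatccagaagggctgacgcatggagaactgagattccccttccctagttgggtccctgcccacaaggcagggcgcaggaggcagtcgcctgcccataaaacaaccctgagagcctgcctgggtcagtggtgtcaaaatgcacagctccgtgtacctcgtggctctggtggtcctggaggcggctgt
Lep: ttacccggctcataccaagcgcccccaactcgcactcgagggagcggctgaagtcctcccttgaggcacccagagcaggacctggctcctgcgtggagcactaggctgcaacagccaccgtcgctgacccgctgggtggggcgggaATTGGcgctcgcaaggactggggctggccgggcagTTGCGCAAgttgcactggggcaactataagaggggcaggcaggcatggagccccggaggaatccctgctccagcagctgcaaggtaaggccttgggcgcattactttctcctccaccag

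The Adipoq window held CCAAT at -69 on the opposite strand and at -42 on the gene's own strand, counted from the annotated start. The Plin1 window held CCAAT at -207 on the opposite strand, and the Cfd window held none of the 5 motifs. The Lep window held CCAAT at -104 on the opposite strand and TTGCGCAA at -69. Promoter windows were found for 7 of the 9 genes, 8 windows in all. CCAAT was present in 4 of the 8 and in 37.5% of 33469 rat promoter windows of the same length. TTGCGCAA was present in 1 of the 8, against 0.170% of all windows. The TATAAA motif was in 2 of the 8 against 14.2%, AGGTCA in 1 against 16.2%, and CACGTG in 0 against 6.42%. The motifs do not overlap in the windows shown. These matches describe letters in the windows alone.

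The label of soleus was checked first, and by its slow fibre genes 1 array went against it. Ckm, the creatine kinase of all skeletal muscle, lay between 14.14 and 14.49 on all 16 arrays and does not tell muscles apart. Myh7, the slow myosin heavy chain that marks soleus, read 12.05 on HCR trained 3, against 14.27 to 14.52 on the other arrays. On that array Tnnt1, slow troponin T, read 10.19, Tnni1, slow troponin I, read 11.90, and Myl2, slow myosin light chain, read 12.27, while the lowest values elsewhere were 13.58, 13.97 and 14.02. A mean over 8 slow fibre genes, each centred on its own average, was -2.29 on HCR trained 3 and 0.10 to 0.20 on the other HCR trained arrays. Fast fibre transcripts were at their highest on it: Myh4, the fast 2B myosin, read 13.57, Actn3, alpha-actinin 3, read 14.27, and Pvalb, parvalbumin, read 13.80, against at most 11.08, 11.10 and 9.08 on any other array. The low slow fibre and high fast fibre levels leave the identity of the sample labelled HCR trained 3 as soleus in doubt, and this array sets the lowest values of Adipoq, Plin1, Cfd and Fasn. The mean of 9 fast fibre genes was 2.68 on HCR trained 3, and was above 0 on all 4 HCR trained arrays. Myh4 read 11.08, 8.43 and 9.98 on HCR trained 1, 2 and 4, and 8.03 on HCR sedentary 2. Apart from these and HCR trained 3, it lay between 4.76 and 5.80. The source of this Myh4 signal was not tested. HCR sedentary 2 stood apart with the highest mean of 11 matrix genes, at 1.77, and of 16 macrophage and leukocyte genes, at 1.16. Alb, listed among genes of tissues taken as absent, read 10.46 on HCR sedentary 2 and 8.12 on HCR sedentary 1. On all other arrays it lay between 4.87 and 5.98. Krt8, Krt18, Ins1 and Ins2 of the same list were not at their highest on either of these arrays. The source of the Alb signal was not tested. For Adipoq and Plin1, differences that use HCR trained 3 or HCR sedentary 2 are also given without that array. For the gene lists this was done only in part, and values without a stated omission use all arrays.

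Adipoq, which encodes the hormone adiponectin, varied 14.6-fold between the highest and the lowest of the 16 rats. It read 9.86, 7.18, 5.99 and 9.40 in HCR trained rats 1 to 4, and 8.10, 6.59, 7.56 and 8.26 in HCR sedentary rats 1 to 4. It read 6.88, 7.02, 6.90 and 7.84 in LCR trained rats, and 9.02, 7.91, 8.01 and 8.00 in LCR sedentary rats. Both the highest and the lowest value thus came from HCR trained rats, of which numbers 1 and 4 were high and number 3 was low. The group means were 8.11 ± 1.83 in HCR trained, 7.63 ± 0.75 in HCR sedentary, 7.16 ± 0.45 in LCR trained and 8.23 ± 0.53 in LCR sedentary rats (SD, n = 4 each). The SD over all 16 arrays exceeded that of 99.6% of the probe sets tested. In order of their means the groups ran LCR sedentary, HCR trained, HCR sedentary and LCR trained, and the ranges of each neighbouring pair overlapped.

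Plin1, whose product coats the adipocyte droplet, varied 13.4-fold and followed Adipoq from rat to rat. It read 9.40, 6.44, 5.65 and 8.81 in HCR trained rats 1 to 4, and 7.10, 5.76, 6.91 and 7.27 in HCR sedentary rats. It read 5.92, 6.36, 6.12 and 6.92 in LCR trained rats, and 8.05, 7.03, 7.04 and 6.86 in LCR sedentary rats. HCR trained 1 and 4 were again the highest arrays, HCR trained 3 the lowest and HCR sedentary 2 the next lowest. The group means were 7.57 ± 1.81 in HCR trained, 6.76 ± 0.68 in HCR sedentary, 6.33 ± 0.43 in LCR trained and 7.25 ± 0.54 in LCR sedentary rats (SD, n = 4 each), with neighbouring groups overlapping. The other Plin1 probe set was dim, between 5.00 and 5.62, and 15 of its 16 values lay under 5.61, the 40th percentile of probe set means.

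Cfd, the secreted protease adipsin, varied 8.57-fold. It read 11.09, 8.60, 7.99 and 10.58 in HCR trained rats, and 9.25, 9.38, 9.29 and 9.61 in HCR sedentary rats. It read 8.97, 9.06, 8.92 and 9.28 in LCR trained rats, and 9.67, 9.21, 9.10 and 8.28 in LCR sedentary rats. HCR trained 1 and 4 lay above every other array, and the HCR trained group enclosed the ranges of the other groups.

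Fasn, which makes palmitate from malonyl-CoA, varied 13.6-fold. It read 10.36, 7.98, 7.20 and 10.96 in HCR trained rats, and 8.51, 7.78, 8.26 and 8.22 in HCR sedentary rats. It read 8.39, 7.67, 7.93 and 8.84 in LCR trained rats, and 9.12, 8.71, 7.76 and 8.51 in LCR sedentary rats. The HCR trained rats 1 and 4 exceeded all other rats, and the group ranges overlapped. The second Fasn probe set ran from 6.07 to 10.02 over the 16 arrays, with the same 2 arrays on top and HCR trained 3 lowest.

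Fabp4 was less variable, with a range of 1.41. It read 11.31, 10.05, 10.01 and 10.93 in HCR trained rats, and 10.61, 9.90, 10.78 and 10.46 in HCR sedentary rats. It read 10.80, 10.49, 10.79 and 10.69 in LCR trained rats, and 10.26, 10.41, 10.67 and 10.32 in LCR sedentary rats. HCR trained 1 and 4 were the highest here too, but the mean of HCR trained rats, 10.57 ± 0.65, was below that of LCR trained rats, 10.69 ± 0.15 (SD, n = 4 each), which was the highest of the 4 groups. All neighbouring groups overlapped.

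The transcriptional regulators moved over a narrow range. Pparg read 6.61, 5.96, 5.64 and 6.16 in HCR trained rats, and 6.09, 5.88, 6.03 and 6.04 in HCR sedentary rats. It lay between 5.67 and 5.97 in LCR trained rats, and read 5.92, 5.83 and 5.93 in LCR sedentary rats 1, 3 and 4, with rat 2 the highest of that group. Cebpa read 7.50, 7.11, 7.12 and 7.43 in HCR trained rats and 7.03, 7.16, 7.04 and 7.21 in HCR sedentary rats. It read 6.84, 6.98, 7.03 and 7.05 in LCR trained rats and 7.35, 6.99, 7.07 and 7.01 in LCR sedentary rats. HCR trained 1 and 4 were the 2 highest arrays for both genes. The other Cebpa probe sets did not behave alike: 3 of them ranged over 5.15 to 7.12, 4.14 to 6.61 and 4.30 to 6.46 with HCR trained 1 and 4 on top, while the remaining one stayed between 5.63 and 5.84.

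Lep, the gene of leptin, was dim throughout. Its values were 5.28, 5.42, 5.32 and 5.34 in HCR trained rats, and 5.52, 5.50, 5.46 and 5.40 in HCR sedentary rats. They were 5.44, 5.26, 5.21 and 5.35 in LCR trained rats, and 5.34, 5.24, 5.47 and 5.32 in LCR sedentary rats. All 16 values lay under the 5.61 set as the dim level, and the SD of 0.095 was below that of most probe sets. A fall in Lep could therefore go unseen with this probe set, and no array showed a rise above the dim level.

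Over the 14 probe sets, 11 had HCR trained 1 and HCR trained 4 as their 2 highest arrays, and 8 had HCR trained 3 as their lowest. Of the 14, 10 had a mean at or above the dim level. The median SD of the 8 representative probe sets was 0.57, against 0.15 for all probe sets tested.

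**Figure D1:**
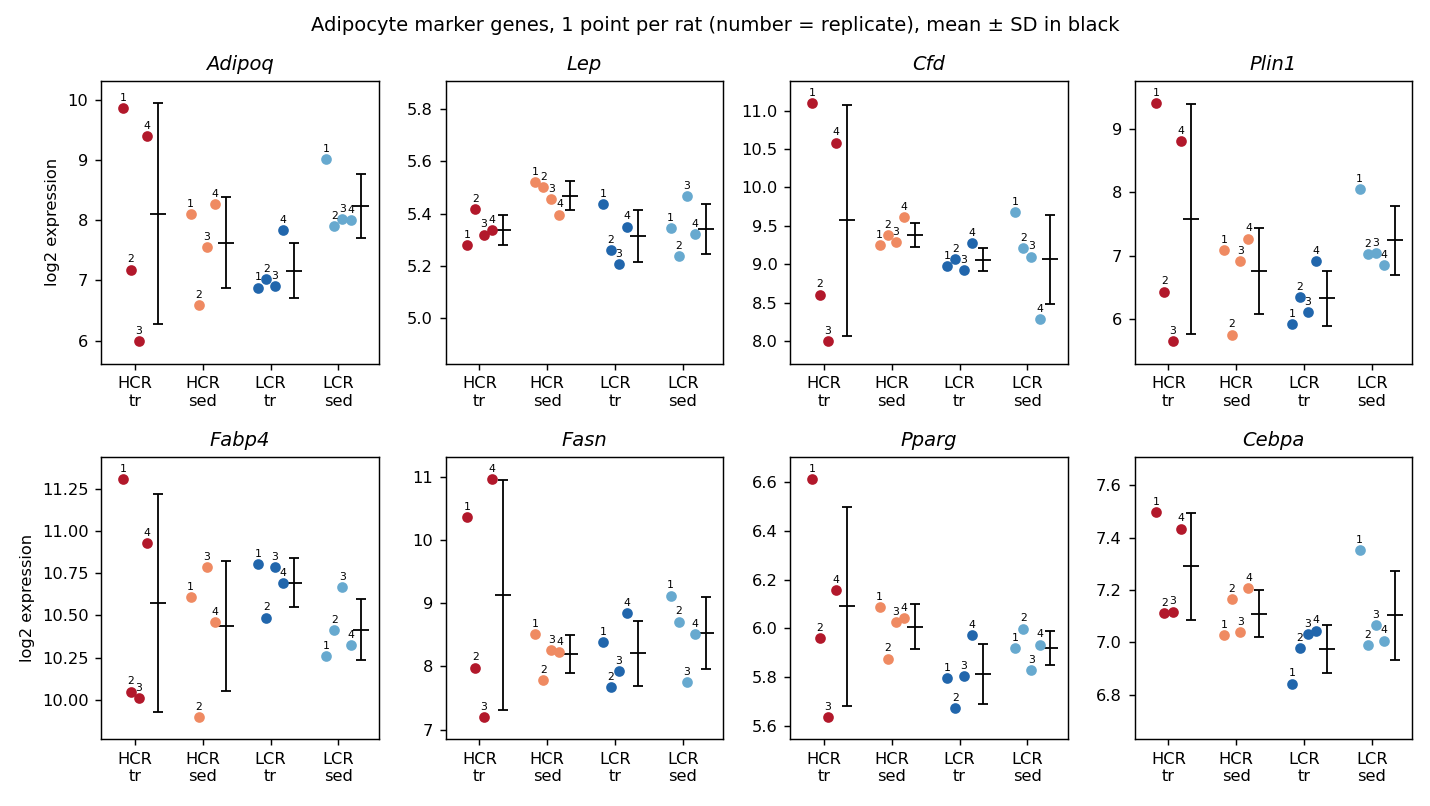
Log2 expression (vertical axis, scaled separately for each gene) of the 8 measured genes in HCR trained (HCR tr), HCR sedentary (HCR sed), LCR trained (LCR tr) and LCR sedentary (LCR sed) rats, with 1 numbered point per rat and the mean ± SD in black (n = 4 each). HCR trained rats 1 and 4 are the highest points for Adipoq, Cfd, Plin1, Fabp4, Fasn, Pparg and Cebpa, and Lep has no such pattern.

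**Figure D2:**
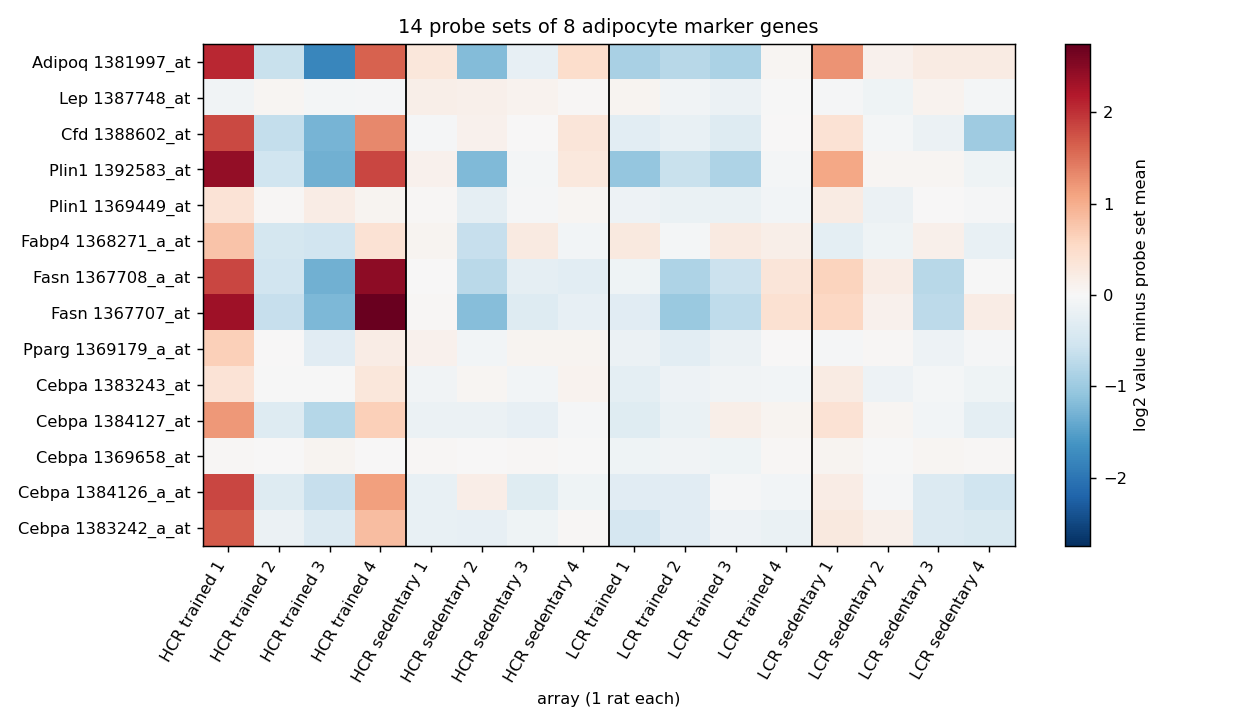
Log2 value minus the probe set's mean (colour) for the 14 probe sets (rows) on the 16 arrays (columns, grouped as HCR trained, HCR sedentary, LCR trained and LCR sedentary). Red columns for HCR trained 1 and 4 and a blue column for HCR trained 3 run through most rows.

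The first comparison asked how training altered these genes in the HCR line. None of the 8 genes passed limma's moderated test after Benjamini-Hochberg adjustment, and 0 had an unadjusted p under 0.05. Of all probe sets 0.187% passed, and 5498 had an unadjusted p under 0.05. Fasn had the largest difference, 0.93 (SE 0.64, 95% interval -0.43 to 2.30, adjusted p = 0.471), a 1.91-fold change, with means of 9.13 in HCR trained and 8.19 in HCR sedentary rats. Plin1 differed by 0.81 (SE 0.66, interval -0.59 to 2.22, adjusted p = 0.554) and Adipoq by 0.48 (SE 0.67, interval -0.96 to 1.91, adjusted p = 0.757). Differences were positive in 7 genes and negative in Lep, with a median of 0.19 against 0.0044 over all probe sets. Adipoq, Plin1, Fasn and Cfd differed by -1.05, -0.71, -0.60 and -1.08 once HCR trained 1 and 4 were left out together, a choice made after seeing the data, and by 1.18, 1.45, 1.57 and 0.71 without HCR trained 3. Without HCR sedentary 2 alone Adipoq differed by 0.13, Plin1 by 0.48 and Fabp4 by -0.044, and without both HCR sedentary 2 and HCR trained 3 Adipoq differed by 0.84 and Plin1 by 1.12. Leaving out HCR trained 1 alone was enough to turn Adipoq to -0.11 and Cfd to -0.32. Adjusted for the beta-actin control index of each array, the 3' minus the middle control probe set, the Adipoq difference was -0.030. None of the genes passed in these fits, and in 0 of the 8 genes were the groups free of overlap, as they were in 7.61% of all probe sets. In the same comparison Myh4 rose by 5.09 (adjusted p = 0.0475), and by 4.15 without HCR trained 3 (adjusted p = 0.0424). The fast fibre genes did not all move alike: 6 of 9 were positive, at a median of 0.15. None of 11 matrix genes and none of 16 macrophage and leukocyte genes was positive, at medians of -0.83 and -0.39, and without HCR sedentary 2 these medians were -0.37 and -0.037. The part of these cell types in the adipocyte gene values was not tested.

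In the LCR line the trained rats lay below the sedentary ones for 7 of the 8 genes, and again none passed (0.00322% of all probe sets passed, 0 of the genes and 3031 probe sets had an unadjusted p under 0.05). Adipoq differed by -1.07 (SE 0.67, 95% interval -2.51 to 0.36, adjusted p = 0.612), with all 4 LCR trained values, 6.88 to 7.84, below all 4 LCR sedentary values, 7.91 to 9.02. It was the 1 gene of 8 whose groups did not overlap, and 8.5% of all probe sets had groups that did not overlap. The SE and interval use a spread shared over all 4 groups, not that of the LCR rats alone. The Adipoq SD was 1.83 in HCR trained, 0.45 in LCR trained and 0.53 in LCR sedentary rats. Fitted on the LCR groups alone, Adipoq had an adjusted p of 0.156 in limma's test. Plin1 differed by -0.92 (SE 0.66, interval -2.32 to 0.49, adjusted p = 0.663), with means of 6.33 in LCR trained and 7.25 in LCR sedentary rats. The 1 gene with the opposite sign was Fabp4, at 0.28 (SE 0.26, adjusted p = 0.740). The median over the genes was -0.12, against -0.024 over all probe sets. Markers of other cell types lay the other way in the same rats: 11 of 11 matrix genes (median 0.70), 15 of 16 macrophage and leukocyte genes (median 0.56) and 10 of 10 endothelial genes (median 0.17) were positive, with 0 passing, and their part in the result was not tested. With 1 array left out at a time the Adipoq difference stayed between -1.30, without LCR trained 4, and -0.81, without LCR sedentary 1.

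Among trained rats, HCR was set against LCR. No gene passed, while 0.374% of all probe sets did, and 1 gene, Cebpa, and 6109 probe sets had an unadjusted p under 0.05. Cebpa differed by 0.32 (SE 0.10, 95% interval 0.098 to 0.53, unadjusted p = 0.00756, adjusted p = 0.119), and its 4 HCR trained values, 7.11 to 7.50, lay above its 4 LCR trained values, 6.84 to 7.05. That 1 of 8 genes had groups that did not overlap compares with 13.6% of all probe sets. In the other Cebpa probe sets these groups overlapped, with differences of 0.10 to 0.77 and adjusted p of 0.220 to 0.696. The dim Plin1 probe set differed by 0.32 (adjusted p = 0.0983), and its groups did not overlap. Plin1 differed by 1.24 (SE 0.66, interval -0.16 to 2.65, adjusted p = 0.310), Adipoq by 0.95 (SE 0.67, interval -0.49 to 2.38, adjusted p = 0.452) and Fasn by 0.92 (SE 0.64, interval -0.45 to 2.29, adjusted p = 0.442). Differences were positive in 7 genes, Fabp4 at -0.12 being the exception, with a median of 0.41 against 0.044 over all probe sets. In a fit with array weights, in which arrays far from their group count less, 6 of the 8 genes passed, namely Adipoq, Cfd, Plin1, Fasn, Pparg and Cebpa, and so did 11.4% of all probe sets. Without HCR trained 1 and 4 the differences of Adipoq, Plin1 and Fasn turned to -0.58, -0.28 and -0.62, and without HCR trained 3 they were 1.65, 1.88 and 1.56. Adjusted for the beta-actin index, Adipoq differed by 0.50. Of the matrix genes 0 of 11 were positive here, at a median of -0.79, and Dcn, decorin, fell by 0.66 (adjusted p = 0.0391). Of the fast fibre genes 5 of 9 were positive, at a median of 0.097, and Myh4 rose by 5.48 (adjusted p = 0.0281).

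Among sedentary rats the lines differed little relative to the spread between rats. None of the genes passed (0.00966% of all probe sets did), and 0 of the 8 genes and 2598 probe sets had an unadjusted p under 0.05. Adipoq differed by -0.60 (SE 0.67, interval -2.04 to 0.83, adjusted p = 0.811), with means of 7.63 in HCR sedentary and 8.23 in LCR sedentary rats. Cfd differed by 0.31 (SE 0.52, interval -0.80 to 1.43, adjusted p = 0.884). The signs were divided, 5 positive and 3 negative, with a median of 0.014 against 0.0057 over all probe sets. The groups overlapped for all 8 genes, and did not overlap for 4.87% of all probe sets. Without HCR sedentary 2 the Adipoq difference was -0.26 and that of Plin1 -0.15. All 11 matrix genes and all 16 macrophage and leukocyte genes were positive, at medians of 0.76 and 0.51, which were 0.25 and 0.14 without HCR sedentary 2.

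The interaction asked whether training acted differently in the lines: the trained minus sedentary difference in HCR, less that in LCR. None of the 31042 probe sets passed (0.0%), and 5673 had an unadjusted p under 0.05. Plin1 gave 1.73 (SE 0.93, 95% interval -0.26 to 3.72, adjusted p = 0.335), Adipoq 1.55 (SE 0.95, interval -0.48 to 3.58, adjusted p = 0.399) and Fasn 1.25 (SE 0.91, interval -0.68 to 3.18, adjusted p = 0.483). Cebpa, at 0.31 (SE 0.14, adjusted p = 0.270), was the 1 gene with an unadjusted p under 0.05, at 0.0486. The median was 0.25, against 0.035 over all probe sets. Without HCR trained 1 and 4 the values were 0.028 for Adipoq and 0.20 for Plin1, and -0.29 for Fasn, and without HCR trained 3 they were 2.26, 2.37 and 1.89. Without HCR sedentary 2 Adipoq gave 1.20 and Plin1 1.40, and adjusted for the beta-actin index Adipoq gave 0.78. The matrix genes lay the other way, 0 of 11 positive at a median of -1.43, or -0.95 without HCR sedentary 2. The 5 comparisons share groups of arrays, so their values are not independent of each other.

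**Figure D3:**
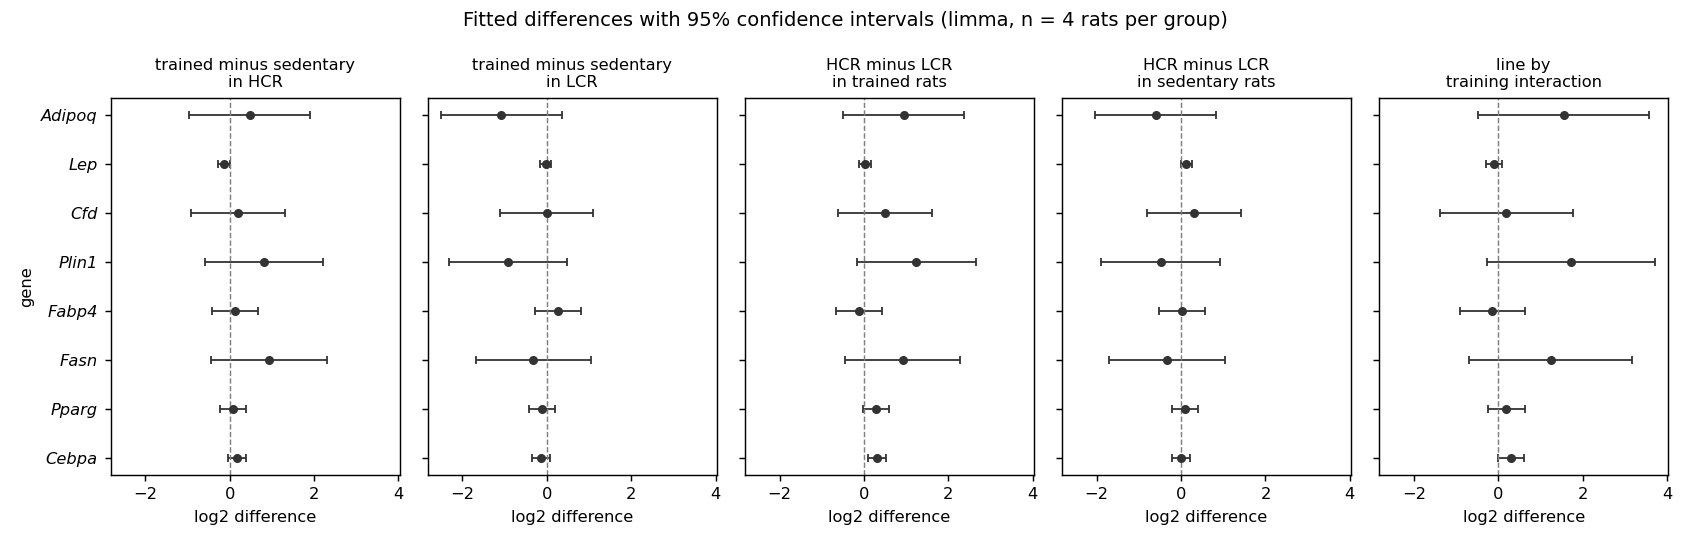
Fitted log2 differences (horizontal axis, points) with 95% confidence intervals (bars) of the 8 genes (rows) in the 5 comparisons (panels, n = 4 rats per group). All intervals for Adipoq, Plin1, Cfd and Fasn include 0, and the interval for Cebpa lies above 0 between trained rats of the lines and in the interaction.

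Although group differences were within the spread between rats, several of the members varied with Adipoq across rats. With Adipoq on the x axis, 7 relations over 16 arrays were computed, with 100000 permutations each and adjustment over the 7. Plin1 gave r = 0.98 by Pearson's measure (permutation p = 1e-05, which is as low as this number of permutations reaches, adjusted p = 3.5e-05) and Spearman's rho = 0.98 (adjusted p = 7e-05). Its r was 0.98 without HCR trained 1 and HCR trained 3, the 2 arrays farthest from the median, 0.99 with group means subtracted, and 0.98 without HCR trained 1 and 4. Plin1 thus kept its relation with Adipoq in every one of these subsets.

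Fasn gave r = 0.87 (permutation p = 1e-05, adjusted p = 3.5e-05) and rho = 0.72 (adjusted p = 0.00541), with r = 0.79 without the 2 farthest arrays and 0.90 with group means subtracted. Pparg gave r = 0.81 (permutation p = 4e-05, adjusted p = 9.33e-05) and rho = 0.76 (adjusted p = 0.00294), with r = 0.66 without those 2 arrays and 0.86 with group means subtracted. Cfd gave r = 0.81 (permutation p = 0.00015, adjusted p = 0.000262) and rho = 0.67 (adjusted p = 0.00931), with r = 0.62 and 0.89 in the same subsets. These 3 genes remained past the threshold with group means subtracted, and Cfd did not without HCR trained 1 and 4 (r = 0.58, adjusted p = 0.0509).

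Cebpa and Fabp4, by their representative probe sets, depended more on a few rats. The other Cebpa probe sets gave r between 0.32 and 0.85 with Adipoq. Cebpa gave r = 0.71 (permutation p = 0.00212, adjusted p = 0.00297) but rho = 0.47 (adjusted p = 0.0952), with r = 0.70 without the 2 farthest arrays, 0.74 with group means subtracted and 0.38 (adjusted p = 0.256) without HCR trained 1 and 4. Fabp4 gave r = 0.59 (permutation p = 0.0175, adjusted p = 0.0204) and rho = 0.36 (adjusted p = 0.201). Without the 2 farthest arrays its r was 0.26, so the relation over all arrays rests on those rats, although r was 0.78 with group means subtracted. Lep gave r = -0.11 (permutation p = 0.674, adjusted p = 0.674) and rho = -0.0059 (adjusted p = 0.987), with r = -0.067 without the 2 farthest arrays and -0.15 with group means subtracted.

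**Figure D4:**
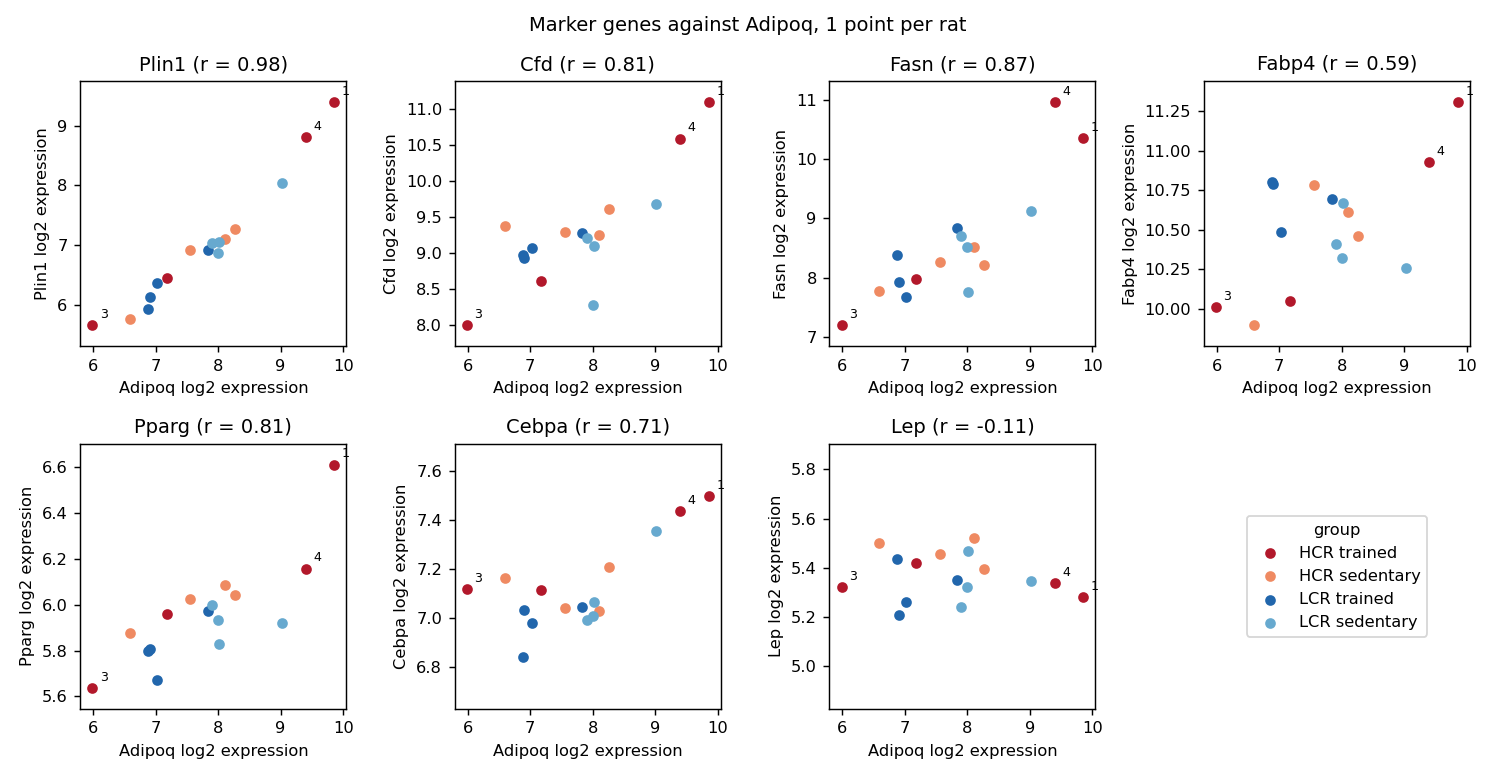
Log2 expression of 7 genes (vertical axes, scaled separately) against log2 expression of Adipoq (horizontal axis), 1 point per rat, coloured by group, with HCR trained rats 1, 3 and 4 numbered. Plin1 lies close to a line through all rats (r = 0.98), Fabp4 is scattered between the high and the low HCR trained rats (r = 0.59), and Lep shows no slope (r = -0.11).

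Genes most like Adipoq in pattern were ranked by Pearson's r over the 16 arrays, among 14236 probe sets with 1 symbol and a mean at or above the dim level. As arrays share their normalization and rats, the values are descriptive. Apart from the members, the first was Cidec, a protein that fuses lipid droplets, at r = 0.97, which read 7.95, 5.88, 5.44 and 7.99 in HCR trained rats and at most 7.20 in any other. Ces1d, a carboxylesterase that hydrolyses triglyceride, followed at r = 0.96, Sncg, gamma-synuclein, at 0.96, Trarg1, a regulator of glucose transporter traffic, at 0.95, and Cdo1, cysteine dioxygenase, at 0.94. The others of the first 10 were Mgst1 (0.91), S100b (0.91), Prkar2b (0.89), Pck1 (0.88) and Rbp4 (0.88). HCR trained 1 or HCR trained 4 was the highest array for each of these 10 genes, which follows largely from their choice by likeness to Adipoq. On the same scale Plin1 stood in place 2 after Adipoq itself, Fasn in places 11 and 15 with its pair of probe sets, Pparg in place 31, Cfd in place 32 and Fabp4 in place 758. Cebpa stood in places 18, 143 and 3545 with its probe sets at or above the dim level.

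The genes nearest to Fasn overlapped with those nearest to Adipoq, sharing Rbp4, Prkar2b, Mgst1, Cidec, Ces1d and Cdo1. Rbp4, a retinol carrier, came first at r = 0.95, then Prkar2b, a regulatory subunit of protein kinase A, at 0.94, Acly, which supplies cytosolic acetyl-CoA, at 0.94, Mgst1 at 0.93, Cidec at 0.92 and Thrsp, a promoter of lipogenesis, at 0.92. Ces1d (0.91), Scd, the desaturase that makes oleate (0.90), Cdo1 (0.86) and the amino acid carrier Slc1a5 (0.86) completed the 10. Fabp4 had different neighbours: Myh11, the smooth muscle myosin heavy chain, at r = 0.86, Lipe, hormone-sensitive lipase, at 0.85, Timp3, an inhibitor of matrix proteases, at 0.85, then Hrct1 (0.79), Rbp7 (0.78), Zfp219 (0.78), Rflnb (0.78), Sema3f (0.78), Ncf1 (0.78) and Mb, myoglobin (0.78). No gene was among the first 10 for both Fabp4 and Adipoq.

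Other adipocyte genes were counted in lists, with all 16 arrays unless said otherwise. Of 11 genes of the droplet and its lipolysis 0 passed in any of the 5 comparisons. For training in HCR 9 of the 11 were positive at a median of 0.19, with Mgll, monoacylglycerol lipase, at 0.49 (adjusted p = 0.154) and Abhd5, an activator of adipose triglyceride lipase, at 0.19 (adjusted p = 0.265). Without HCR sedentary 2 the median was 0.022, with 6 of 11 positive. Without HCR trained 3 it was 0.44, with 11 of 11 positive, and Cidea, a droplet protein named after its values were seen, then passed at 1.03 (adjusted p = 0.0425). In that fit 190 of all probe sets passed, against 58 with all arrays. For training in LCR 5 of 11 were positive at a median of -0.049, with Cav1, caveolin 1, at 0.34 (adjusted p = 0.361) and Mgll at -0.29 (adjusted p = 0.590).

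Of 13 fat synthesis genes 0 passed in any of the 5 comparisons as well. For training in HCR all 13 were positive at a median of 0.51, against 0.0044 over all probe sets, with Me1, malic enzyme, at 0.49 (adjusted p = 0.113) and Gpd1, glycerol-3-phosphate dehydrogenase, at 1.76 (adjusted p = 0.162). Gpd1 read 12.70 on HCR trained 3, the array with the high fast fibre mean, and at most 10.22 on any other. Without that array Gpd1 differed by 1.07 (adjusted p = 0.200) and all 13 were positive at a median of 0.68, while without HCR sedentary 2 it differed by 1.28 (adjusted p = 0.373) and 11 of the 13 were positive at a median of 0.39. For training in LCR 4 of the 13 were positive at a median of -0.34, with Me1 at -0.45 (adjusted p = 0.350) and Pck1, phosphoenolpyruvate carboxykinase, at -0.64 (adjusted p = 0.466). Between trained rats of the lines 11 of the 13 were positive at a median of 0.64, with Me1 at 0.64 (adjusted p = 0.0563) and Pck1 at 0.69 (adjusted p = 0.174). Without HCR sedentary 2, which changes only the estimated variance of this comparison, Me1 passed (adjusted p = 0.0297). The share of all probe sets that passed in that fit is not given here, so the pass cannot be read as particular to Me1. Without HCR trained 1 and 4, 5 of the 13 were positive at a median of -0.023.

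Of 7 further secreted factors 0 passed in any comparison, and between trained rats of the lines 5 were positive at a median of 0.33, with Nampt at -0.51 (adjusted p = 0.0922) and Rbp4 at 1.26 (adjusted p = 0.191). Nampt passed without HCR sedentary 2 (adjusted p = 0.0392), and without HCR trained 3 the median of the 7 was 0.61. For the fit without HCR sedentary 2 the share of all probe sets that passed is not given. The pass of Nampt thus cannot be read as particular to that gene. Of 9 further regulators of adipogenesis 0 passed, and for training in HCR 6 were positive at a median of 0.12, with Nr1h3, the liver X receptor alpha gene, at 0.74 (adjusted p = 0.0773) and Ebf2 at -0.21 (adjusted p = 0.263). Of 9 receptor and signalling genes for adipokines 0 passed, and for training in HCR 3 were positive at a median of -0.022, with Cdh13, which binds adiponectin, at -0.64 (adjusted p = 0.134) and Npr3 at -0.26 (adjusted p = 0.235). Without HCR sedentary 2 the medians of the regulators and receptors were 0.042 and -0.043, and without HCR trained 3 they were 0.099 and -0.011.

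By array, the list means followed the members in part. The mean of the 8 members was 1.24, -0.35, -0.82 and 1.01 in HCR trained rats 1 to 4. In the same rats the fat synthesis mean was 0.84, -0.19, -0.069 and 0.98, and the mean of the further secreted factors 0.73, -0.12, -0.43 and 0.56. The regulators' means stayed between -0.26 and 0.14 over all 16 rats. HCR trained 1 and 4 were the highest arrays for the fat synthesis and secreted means, and had regulator means of 0.13 and -0.030.

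**Figure D5:**
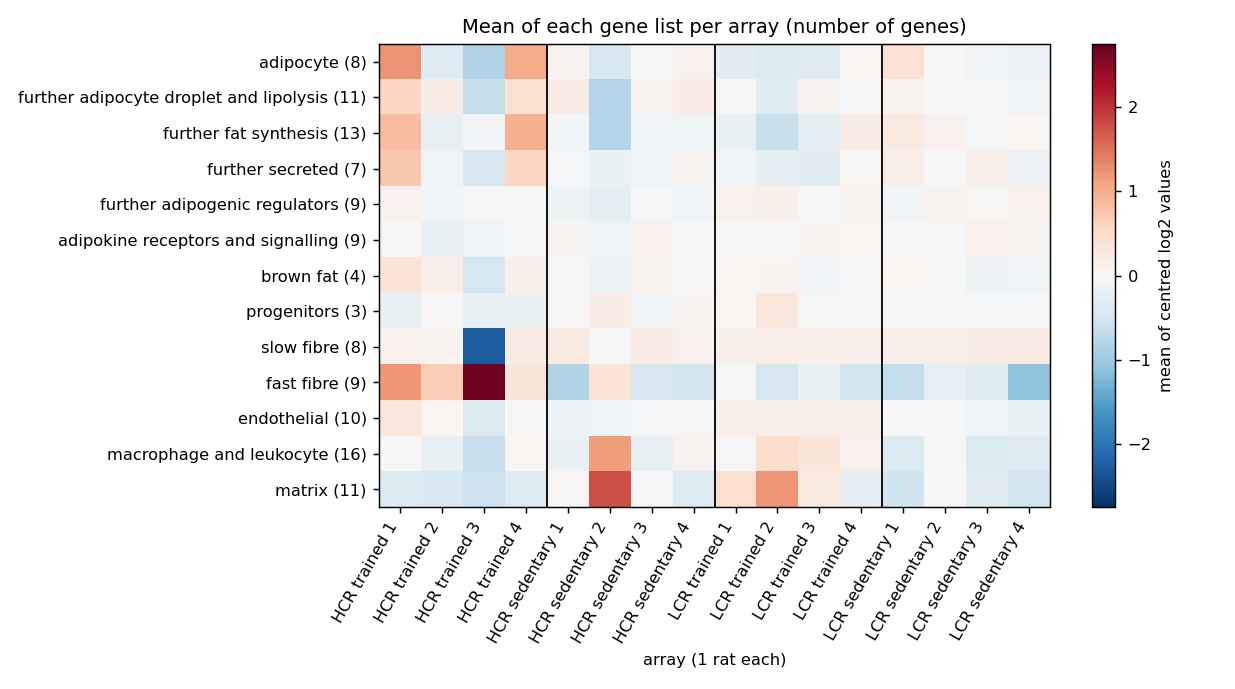
Mean of each gene list on each array (colour, mean of log2 values centred on each gene's average), with the number of genes in brackets. The members, fat synthesis and secreted lists are red for HCR trained 1 and 4, the slow fibre list is at -2.29 for HCR trained 3, and the matrix list is at 1.77 for HCR sedentary 2.

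Adipoq was also set against 7 measures of the arrays, and over all 16 arrays none passed after adjustment over the 7. The slow fibre mean gave r = 0.48 (permutation p = 0.0741, adjusted p = 0.259), rho = 0.33 (adjusted p = 0.295) and r = 0.46 without the 2 farthest arrays. The matrix mean gave r = -0.47 (permutation p = 0.0639, adjusted p = 0.259) and rho = -0.41 (adjusted p = 0.281), with r = -0.70 without those 2 arrays. The beta-actin control index, which depends on RNA and labelling as well as on actin expression, gave r = 0.39 (permutation p = 0.136, adjusted p = 0.318), rho = 0.41 (adjusted p = 0.281) and 0.58 without those 2 arrays. That index was 1.57 to 2.37 in HCR trained rats, 0.38 to 1.59 in HCR sedentary, 1.06 to 1.36 in LCR trained and 1.33 to 2.07 in LCR sedentary rats. Adjusted for it, the Adipoq difference for training in LCR was -0.81.

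The endothelial mean gave r = 0.35 (permutation p = 0.184, adjusted p = 0.323), rho = 0.11 (adjusted p = 0.698) and r = -0.32 without the 2 farthest arrays, and the fast fibre mean r = -0.26 (permutation p = 0.336, adjusted p = 0.470), rho = -0.34 (adjusted p = 0.295) and r = -0.28. The macrophage and leukocyte mean gave r = -0.19 (permutation p = 0.479, adjusted p = 0.559), rho = -0.14 (adjusted p = 0.691) and r = -0.55, and the GAPDH control index r = 0.081 (permutation p = 0.735, adjusted p = 0.735), rho = 0.58 (adjusted p = 0.146) and r = 0.0092. Without HCR trained 1 and 4 the slow fibre mean (r = 0.585, adjusted p = 0.0199) and the fast fibre mean (r = -0.747, adjusted p = 0.00602) passed by permutation test. With group means subtracted, 3 of the 7 passed: endothelial genes at r = 0.75 (adjusted p = 0.0133), slow fibre genes at 0.70 (adjusted p = 0.0133) and fast fibre genes at -0.66 (adjusted p = 0.0147). HCR trained 3, lowest for Adipoq and for the slow fibre and endothelial means and highest for the fast fibre mean, weighs in each of these. With group means not subtracted, r without it was 0.10 for endothelial, 0.25 for slow fibre and 0.18 for fast fibre genes. On that same measure r was 0.35, 0.48 and -0.26 with all 16 arrays. The relations that passed were not recomputed without HCR trained 3. The part of fibre type, vessels or RNA quality in the variation of the adipocyte genes was not tested.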

How the data were processed

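The authors deposited a single table of log2 values for soleus RNA of 16 rats, 1 rat per array. Per the submitters' processing notes, RMA and limma were used; their versions are unknown here. RMA corrects background and equalises array distributions, so a shift common to every probe set would not be seen. No detection calls were used.

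After 57 control probe sets were left out, 31042 were fitted with limma 3.58.1 in R 4.3.3 as 4 group means (12 residual degrees of freedom, eBayes, Benjamini-Hochberg within each comparison, threshold 0.05). The fit was tested on simulated data. Correlations used 100000 permutations (scipy 1.17.1), two-sided. Rats are separate animals per the labels. The genes, lists and tests were chosen with earlier results of these data known, as was the rule for names: all members, from each list the 2 genes of smallest p in a comparison, and the 10 genes most like Adipoq, Fabp4 and Fasn among probe sets at or above the 40th percentile of means. Alternatives were array weights, a replicate block, a control index as covariate, filters on dim probe sets and arrays left out. Scan times were not used here. Arrays were scored for outlying values with Dixon's test at 0.829.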

Additional observations from a re-analysis of the deposited data

Results flagged for a closer look

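Among the 4 arrays of each group, the highest or lowest value was checked against the others for every member probe set, 56 groups in all. In 4 of them 1 array lay far from the rest, where chance marks about 1 in 20 groups. Adipoq read 7.84 in LCR trained 4, against 6.88 to 7.02 in the other LCR trained rats. Adipoq read 9.02 in LCR sedentary 1, against 7.91 to 8.01 in the other LCR sedentary rats, and Plin1 read 8.05 in the same rat, against 6.86 to 7.04. The Cebpa probe set of narrowest range read 5.79 in LCR trained 4, against 5.63 to 5.66 in the other LCR trained rats.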

How the results depend on the processing

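Over 40 member differences and 771 alternative values, 719 kept the sign of the reported value, 52 did not, and 6 passed the threshold. The 6 were those of trained rats, HCR minus LCR, with array weights, where the count of genes called was 6 in place of 0. In the other comparisons and settings 0 genes were called. Some settings, such as the replicate block and omission of arrays from groups outside a comparison, cannot alter a difference. The 719 kept signs include these and do not measure robustness. Without both HCR sedentary 2 and HCR trained 3, chosen for the lists after seeing the data, 3 of 11 droplet and 2 of 13 fat synthesis genes passed between trained rats, against 0 with all arrays. In that fit 1315 of all 31042 probe sets passed, against 116 with all arrays. For all probe sets the count for training in HCR was 1 (without HCR sedentary 1) to 454 (without HCR sedentary 4) with 1 array left out and 0 to 1304 otherwise. Between trained rats it was 9 (without LCR trained 1) to 255 (without HCR trained 3), and 5 to 3525 otherwise. With the replicate block, the count was 2 for training in HCR, 25 between trained rats and 0 genes called in each comparison. Same-numbered rats correlated between -0.48 and 0.57 in their deviations, with 8 of 24 above 0.1, so the numbers were not taken to pair rats. Relations with Adipoq without HCR trained 1 and 4 were r = 0.089 for Lep, 0.582 for Cfd, 0.258 for Fabp4, 0.378 for Cebpa, 0.585 for the slow fibre mean and -0.747 for the fast fibre mean. With group means subtracted they were 0.696 for slow fibre, -0.660 for fast fibre, 0.751 for endothelial, 0.038 for macrophage genes and -0.048 for the GAPDH index. With 1 array left out, r ranged from -0.245 to 0.019 for Lep, 0.411 to 0.697 for Fabp4, -0.556 to 0.178 for fast fibre, -0.464 to 0.055 for macrophage, -0.667 to -0.380 for matrix genes and -0.010 to 0.740 for the GAPDH index. HCR trained 2, with a GAPDH index of 1.67, set the last of these. The causes were not tested. Lep fell out of the fit without dim probe sets, and its level near background limits what can be said of it.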

Other observations

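Markers of brown fat and of adipocyte progenitors were counted as well. Of 4 brown fat genes 0 passed in any of the 5 comparisons of limma's test over all 16 arrays, and 0 to 1 had an unadjusted p under 0.05 in each. Ucp1, the uncoupling protein that defines brown fat, lay between 5.22 and 5.87 over all 16 arrays, and Prdm16, a regulator of the brown lineage, between 4.92 and 5.25. Cidea, which is made by brown and white adipocytes and is also on the droplet list, had a mean of 7.98. Levels of different probe sets are not compared here. It read 9.22, 8.78, 5.35 and 8.77 in HCR trained rats and lay between 7.56 and 8.46 in all others, so that HCR trained 1 was the highest array and HCR trained 3 the lowest. Of 3 progenitor genes 0 passed. For training in HCR 0 of the 3 were positive, at a median of -0.17, and for training in LCR 2 were, at 0.027. Between trained HCR and LCR rats 1 was positive, at a median of -0.30. Pdgfra, a receptor of fibro-adipogenic progenitors, differed by -0.39 for training in HCR (adjusted p = 0.163). That difference was -0.25 without HCR trained 3 and -0.28 without HCR sedentary 2. Pdgfra differed by 0.32 for training in LCR (adjusted p = 0.466), and by -0.46 between trained HCR and LCR rats (adjusted p = 0.0924).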
